A study of Mus musculus with 9 samples.

Results

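The genes described here are 34 of the 23282 gene rows measured in RAW264.7, a line of mouse macrophages. These cells turn into osteoclast-like cells when they receive RANKL, the cytokine that drives osteoclast differentiation. They were chosen by function, with no threshold on their values. The glycolysis list holds 22 genes, which carry glucose in, break it down to lactate and carry lactate out. The HIF-pathway list holds the other 12, which are the transcription factor Hif1a, oxygen sensors and other targets of the factor. Of the 34 genes, 32 had enough reads to be tested in each comparison, and Eno1 and Egln3 did not.

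There were 3 groups of 3 libraries. Cells of the negative control received RANKL alone at 50 ng/mL. The surface protein-treated cells received RANKL at the same dose and surface proteins of Propionibacterium freudenreichii MJ2, a dairy bacterium, at 10 µg/mL. The third group received heat-killed MJ2 at 10000000 cells/mL, and whether these cells also had RANKL is not given in the labels of the single libraries. Treatment lasted 4 days in all groups, and the cells were a single line at passage 30, labelled as of BALB/c origin and of the tissue blood lymph. Nothing in the labels says whether the replicates were separate cultures, so the p-values measure the spread between these libraries, which may be technical.

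Glycolysis turns glucose into pyruvate with a small gain of ATP, and lactate dehydrogenase then allows the pathway to run on without oxygen. The factor HIF is made all the time, and while oxygen is present the prolyl hydroxylases Egln1 and Egln3 mark its alpha subunit for destruction. When oxygen falls, or when macrophages meet bacterial products, the alpha subunit persists and raises the transcription of glycolytic enzymes, of Vegfa and of genes for mitochondrial clearance. The HIF dimer recognises the core letters ACGTG or GCGTG in DNA, and osteoclasts are known for a high demand for energy during differentiation and resorption.

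To show the sequence in which these core letters were searched, the promoter windows of 4 genes that passed the test in at least 1 comparison are printed from RefSeq (GRCm38.p6, the assembly named mm10), each from 250 bases before to 50 bases after the listed start, 5′ to 3′ on the strand of the gene. Capitals mark ACGTG and GCGTG, or CACGT and CACGC where the match lies on the other strand. The window of Ero1l, named Ero1a in RefSeq, lies at chr14:45318523-45318822 on the minus strand, that of Hk3 at chr13:55021336-55021635 on the minus strand, that of Aldoc at chr11:78322823-78323122 on the plus strand and that of Eno2 at chr6:124769624-124769923 on the minus strand.
Ero1l: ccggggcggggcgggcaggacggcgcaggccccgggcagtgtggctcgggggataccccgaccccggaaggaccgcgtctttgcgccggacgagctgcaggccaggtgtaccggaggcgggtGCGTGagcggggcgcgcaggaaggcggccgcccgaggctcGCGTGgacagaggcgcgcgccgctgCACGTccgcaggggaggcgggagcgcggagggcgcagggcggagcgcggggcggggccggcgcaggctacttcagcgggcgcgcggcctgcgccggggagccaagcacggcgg
Hk3: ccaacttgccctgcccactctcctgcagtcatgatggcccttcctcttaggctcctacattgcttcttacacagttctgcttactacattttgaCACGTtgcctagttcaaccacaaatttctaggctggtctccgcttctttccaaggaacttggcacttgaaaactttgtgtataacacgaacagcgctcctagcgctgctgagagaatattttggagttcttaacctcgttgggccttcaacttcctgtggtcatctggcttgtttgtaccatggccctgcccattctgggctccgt
Aldoc: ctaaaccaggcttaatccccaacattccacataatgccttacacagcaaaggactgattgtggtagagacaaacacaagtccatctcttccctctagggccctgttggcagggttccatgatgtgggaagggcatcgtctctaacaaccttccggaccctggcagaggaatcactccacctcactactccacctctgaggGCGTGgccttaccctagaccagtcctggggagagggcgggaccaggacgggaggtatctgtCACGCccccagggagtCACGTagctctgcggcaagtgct
Eno2: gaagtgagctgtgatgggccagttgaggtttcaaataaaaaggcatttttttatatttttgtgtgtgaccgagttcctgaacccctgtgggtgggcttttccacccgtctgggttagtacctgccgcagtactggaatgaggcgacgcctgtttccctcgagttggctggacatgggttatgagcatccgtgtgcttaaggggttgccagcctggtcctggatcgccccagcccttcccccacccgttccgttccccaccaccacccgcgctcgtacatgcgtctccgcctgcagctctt

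The Ero1l window held 1 ACGTG and 2 GCGTG, the Aldoc window had the same counts, the Hk3 window held 1 ACGTG and no GCGTG, and the Eno2 window held neither. Pfkm, the fifth gene that passed a test, is listed with 4 windows, and its first held 3 matches to ACGTG, where a CACGTG counts on both strands. A window was listed for 33 of the 34 genes, with Bnip3l lacking one. In the first listed window, ACGTG on either strand was present in 20 of 33 genes (60.6%), against 27.0% of 8740 tested genes with a window and 19.7% of all 27025 genes with a window. The share was 54.5% in the glycolysis list and 72.7% in the HIF-pathway list. GCGTG was present in 54.5% of the 33 genes against 53.1% of the tested genes and 32.5% of all genes. Either of these core motifs, which can share at most their end letters, was found in 78.8%, 64.9% and 43.8%, respectively. A match describes letters in the window and is not a binding site.

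Libraries held between 5930926 and 6503682 adjusted reads, which are the deposited log2 values raised back to reads with the added 1 removed. Reads were taken from the 3′ end of mRNA, so a value does not grow with the length of the transcript. The 34 genes took 0.789% to 1.03% of all adjusted reads of a library. Macrophage markers were present in all libraries, with a summed level, scaled to 1000000 adjusted reads per library, of 2493 to 2697 under RANKL alone, 2970 to 3146 under heat-killed MJ2 and 2588 to 2952 under surface proteins. The 10 osteoclast markers summed to 3376 to 5366 on this scale under RANKL alone, 2227 to 2676 under heat-killed MJ2 and 809 to 1235 under surface proteins. Of the 9 osteoclast markers tested, 7 were lower under surface proteins and 3 under heat-killed MJ2 than under RANKL alone, and 0 were higher, also at an unadjusted p under 0.05 (limma). Of 7 macrophage markers tested, 4 were higher and 1 lower under surface proteins, and 3 were higher and 0 lower under heat-killed MJ2, also with 0 lower at an unadjusted p. Over all genes tested, 10.2% were higher and 7.32% lower under surface proteins, and 3.37% and 0.897% under heat-killed MJ2. Markers of fibroblasts, epithelium, T cells and B cells together made up 1.53 to 7.97 on the same scale, with Krt8, Krt18 and Cd3e at 0 in all 9 libraries. The fibroblast marker Dcn, under the filter, held at most 0.057 adjusted reads under RANKL alone, 0 to 7.75 under heat-killed MJ2 and 9.81 to 23.2 under surface proteins. In these bulk samples fewer osteoclast-like cells and less RNA per cell cannot be told apart, and the part of these marker levels in the results below was not tested.

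Replicate 2 of RANKL alone stood apart in these very genes. It had the highest value of its group for 24 of the 32 tested genes (75%), 15 of 21 in the glycolysis list (71.4%) and 9 of 11 in the HIF-pathway list (81.8%), against 34.1% of 11193 expressed genes. It was the highest of all 9 libraries for 17 of the 34 genes. Its log2 value exceeded the mean of the other 2 control libraries by 0.31 at the median of the 32 genes and by 0.74 at the median of the HIF-pathway list, against 0.01 over all expressed genes. The excess was 2.20 for Adm, 1.68 for Ero1l, 1.26 for Ankrd37, 1.24 for Vegfa and 1.20 for both Eno2 and Pfkfb3 on the log2 scale, and it was negative for Hk3, Pfkfb4, Aldoc, Slc16a1 and Pdk3. These genes were picked after their values were seen. The standard deviation within RANKL alone had a median of 0.44 log2 units over the HIF-pathway list, against 0.15 within heat-killed MJ2 and 0.23 within surface proteins, and values of the 34 genes that changed sign or moved by over 1.5 times without this library are given below both ways where they are printed. Other libraries were unevenly placed in these genes too. Replicate 1 of RANKL alone was the lowest of its group for 19 of the 32 genes, against 3758 of 11193 expressed genes. In the glycolysis list, replicate 1 of surface proteins was the highest of its group for 13 of 21 genes (61.9%), against 35.8% of expressed genes. Replicate 2 of surface proteins was the lowest for 13 of 21, against 3590 of 11193. The cause was not tested for any of these libraries.

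**Figure D1:**
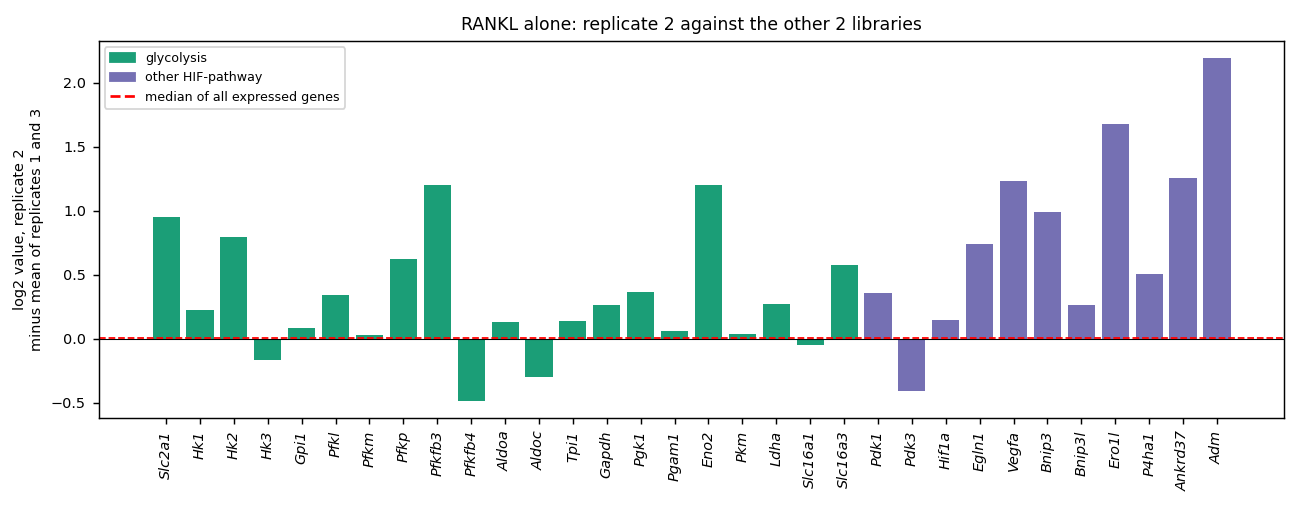
Excess of replicate 2 of RANKL alone over the mean of replicates 1 and 3 (log2 units, vertical axis) for each of the 32 tested genes. Green bars are glycolysis genes, purple bars other HIF-pathway genes, and the dashed line is the median of all expressed genes (0.01). The bar of Adm reached 2.20 and that of Ero1l 1.68.

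With surface proteins, 2 of the 32 genes rose and 1 fell against RANKL alone. Ero1l, the oxidase that helps form disulfide bonds in the endoplasmic reticulum, was 7.41-fold higher, Hk3, a hexokinase of myeloid cells, was 3.30-fold higher, and Pfkm, the muscle form of phosphofructokinase, was 3.25-fold lower. In the glycolysis list, 1 of 21 tested genes was called higher and 1 lower. In the HIF-pathway list, 1 of 11 was called higher and 0 lower, also at an unadjusted p under 0.05 with the same limit on the fold change (limma), a rule by which 11.3% of all genes tested were higher and 8.42% lower. A call needed at least a 2-fold difference together with an adjusted p below 0.05, and by this rule 10.2% of the 10874 genes tested were higher and 7.32% lower, 17.5% in all. The median log2 fold change was −0.10 in the glycolysis list and −0.39 in the HIF-pathway list, against −0.01 over all genes tested. Without replicate 2 of RANKL alone these medians were 0.09, −0.19 and 0.002, so the sign of the glycolysis median rested on that library.

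Without the limit on the fold change, 5 glycolysis genes passed as lower, and 13.2% of all genes tested did so. Under this rule 1 gene of each list was higher, Hk3 and Ero1l, where 15.9% of all genes were. The lower ones were Pfkm with Hk1, the widely expressed hexokinase, Aldoc, an aldolase known from brain, Pgam1, which moves a phosphate within phosphoglycerate, and Ldha, which makes lactate. The log2 fold changes of the latter 4 were −0.70 (adjusted p = 0.0151), −0.76 (adjusted p = 0.0165), −0.49 (adjusted p = 0.0345) and −0.54 (adjusted p = 0.046), all from limma. Over the alternatives the largest adjusted p of these genes were 0.0506, 0.0552, 0.102 and 0.128. All 3 surface protein libraries lay below all 3 of RANKL alone for 9 of 21 glycolysis genes, where 23.7% of all genes did, and above them for 1, where 24.7% did. In the HIF-pathway list the counts were 2 below and 1 above of 11. Without replicate 2 of RANKL alone, 9 glycolysis genes lay below and 6 above, and 2 HIF-pathway genes lay below and 3 above, where 28% of all genes lay below and 28.9% above. With 2 control libraries in place of 3, groups are more easily apart. The glycolysis list summed to 0.788% to 0.905% of adjusted reads under RANKL alone, 0.743% to 0.801% under heat-killed MJ2 and 0.665% to 0.761% under surface proteins. This sum leaves out the 2 rows named Eno1b and includes Gapdh, whose count is uncertain, both described below.

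**Figure D2:**
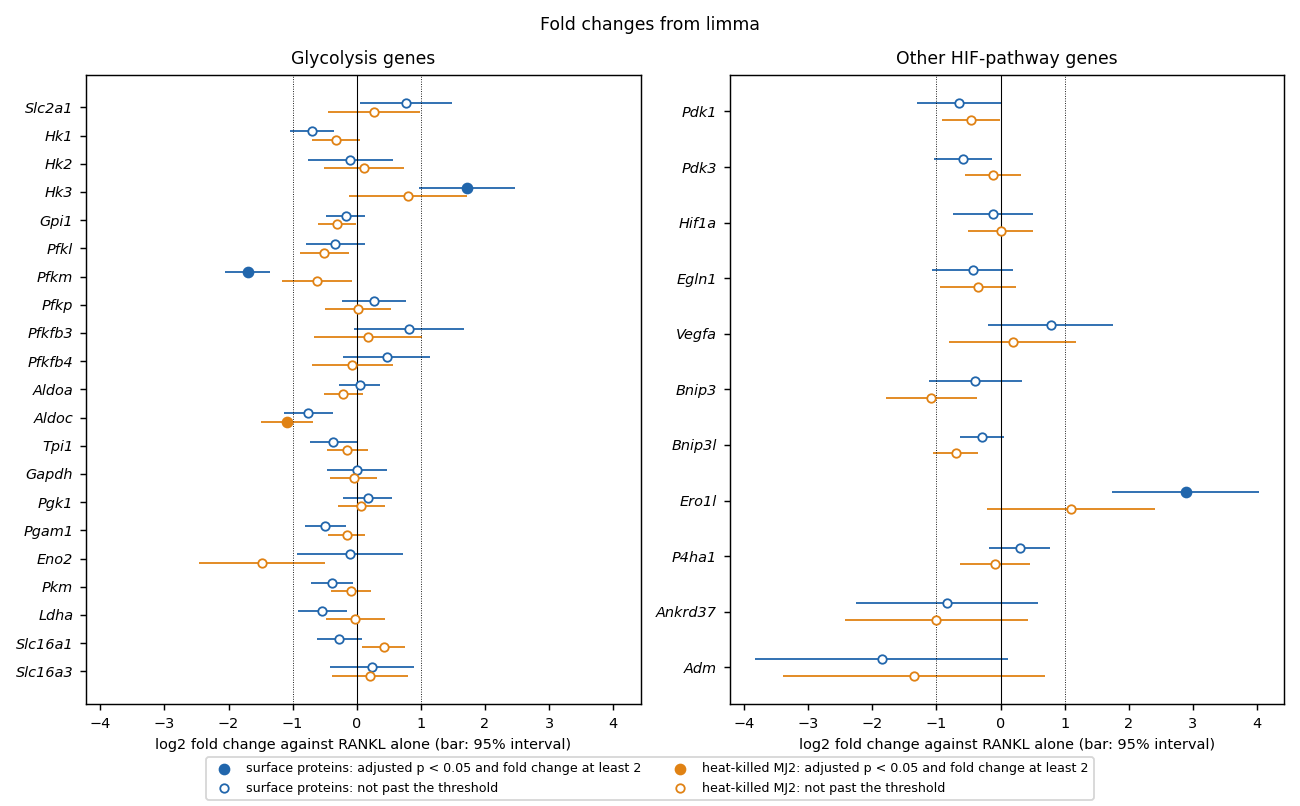
Log2 fold changes against RANKL alone (horizontal axis) of the 21 glycolysis genes and 11 HIF-pathway genes tested, under surface proteins (blue) and heat-killed MJ2 (orange). Bars are 95% intervals from limma, filled points are genes called by the rule above, and dotted lines mark a 2-fold difference. Filled points are Hk3, Pfkm and Ero1l for surface proteins and Aldoc for heat-killed MJ2.

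With heat-killed MJ2, 1 of the 32 genes passed against RANKL alone. This was Aldoc, 2.13-fold lower. No glycolysis gene was called higher, and no HIF-pathway gene in either direction, by limma. Of all 10814 genes tested, 3.37% were called higher and 0.897% lower, 4.26% in all. At an unadjusted p under 0.05 and the same fold, 2 glycolysis genes (Aldoc and Eno2) and 1 HIF-pathway gene (Bnip3) were lower and 0 of either list higher, where 2.03% of all genes were lower and 5.36% higher. Without the limit on the fold change, Aldoc and Bnip3l passed as lower, where 1.84% of all genes did. The median log2 fold change was −0.07 in the glycolysis list and −0.35 in the HIF-pathway list, against −0.004 over all genes, and −0.08, −0.25 and −0.01 without replicate 2 of RANKL alone. Heat-killed MJ2 libraries lay below all of RANKL alone for 9 of 21 glycolysis and 3 of 11 HIF-pathway genes, where 14.7% of all genes did, and above them for 1 and 0, where 15.4% did. Without replicate 2 of RANKL alone these counts were 9 and 4 below, where 19.7% of all genes did so, and 6 and 1 above, where 20% did. Both comparisons use the same RANKL-alone libraries, so their values are set side by side and not as independent results.

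Tested directly against heat-killed MJ2, the surface protein libraries had higher Ero1l (3.45-fold) and Eno2 (2.59-fold), the neuronal form of enolase, and lower Pfkm (2.11-fold). This made 1 glycolysis gene higher, 1 lower and 1 HIF-pathway gene higher, with 0 HIF-pathway genes lower also at an unadjusted p under 0.05 (limma), a rule by which 6.36% of all genes were higher and 6.52% lower. Of all 10916 genes tested, 5.08% were called higher and 4.97% lower, 10.1% in all. Without the limit on the fold change, 2 genes of each list were higher, where 9.21% of all genes were, and 2 glycolysis genes were lower, where 8.65% of all genes were. The groups did not overlap, with surface proteins higher, for 9 glycolysis and 5 HIF-pathway genes, where 22.2% of all genes did so. With surface proteins lower, they did not overlap for 6 and 1, where 20.1% of all genes did so. The median log2 fold change was 0.10 in the glycolysis list and 0.17 in the HIF-pathway list, against 0.03 over all genes. With 3 libraries against 3, the exact two-sided permutation test of a single gene cannot go below 0.1, and it stood at 0.1 for each gene called here.

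**Figure D3:**
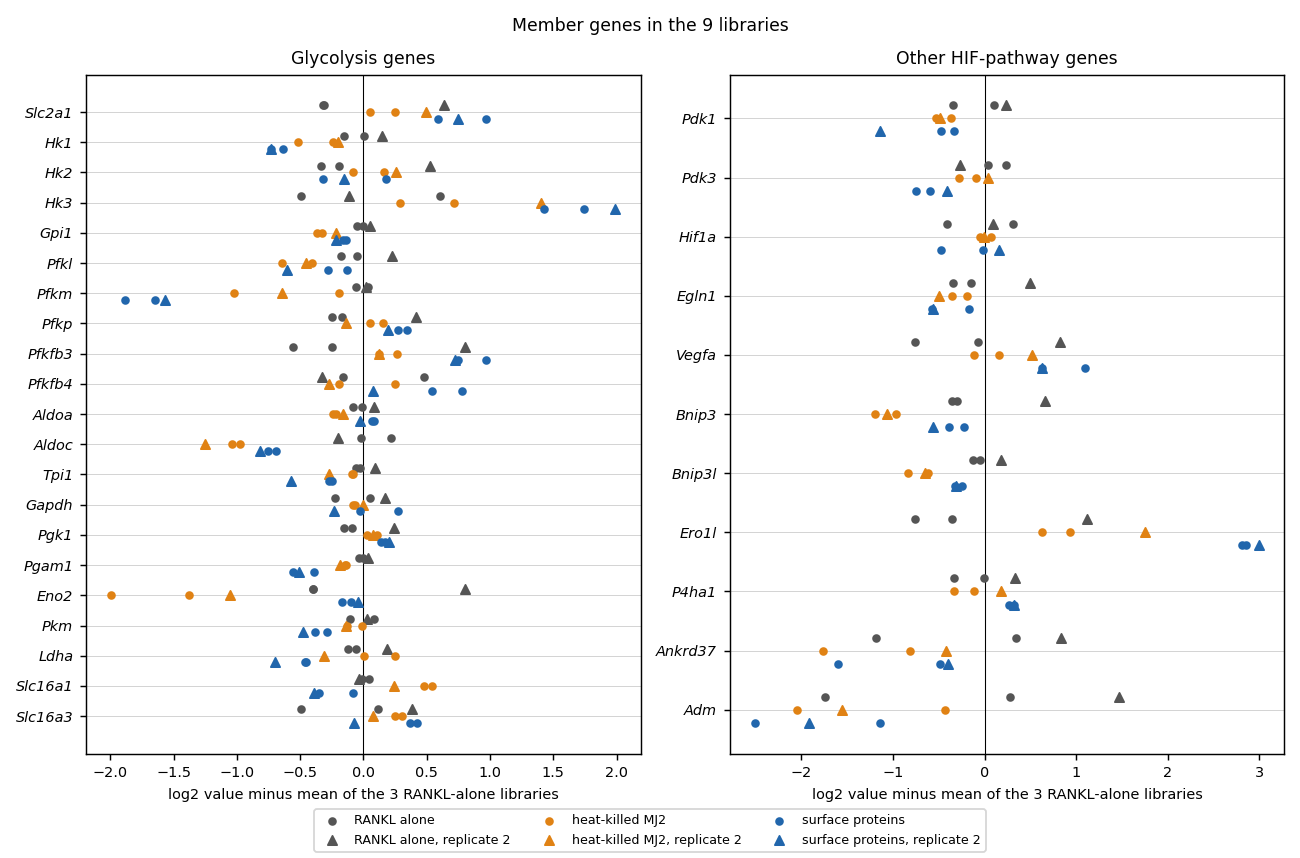
Log2 value of each tested gene in each of the 9 libraries, minus the mean of the 3 RANKL-alone libraries (horizontal axis), for glycolysis genes (left) and other HIF-pathway genes (right). Grey points are RANKL alone, orange heat-killed MJ2, blue surface proteins, and triangles mark replicate 2 of each group. Ero1l and Hk3 lie to the right under surface proteins and Pfkm to the left, and the grey triangle lies to the right of the grey circles for 24 of the 32 genes.

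Glucose enters through transporters such as Slc2a1 (GLUT1). Slc2a1 had 753, 1453 and 748 adjusted reads under RANKL alone, 968, 1321 and 1110 under heat-killed MJ2 and 1836, 1569 and 1405 under surface proteins. The first 2 groups overlapped, and replicate 2 of RANKL alone lay within the surface protein range. Its log2 fold change under surface proteins was 0.77 ± 0.29 (SE, n = 3 per group, limma adjusted p = 0.0977), and without that library it was 1.09 and passed (adjusted p = 0.0152, with 0.0152 to 0.232 over the alternatives). Slc2a1, Pfkfb3 and Vegfa are shown in every library because of this dependence, chosen after their values were seen.

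Hexokinases trap glucose in the cell by phosphorylation. Hk3 (chromosome 13, 55005985 to 55021475) had 224, 292 and 481 adjusted reads under RANKL alone, 521, 836 and 386 under heat-killed MJ2 and 852, 1259 and 1061 under surface proteins. All surface protein libraries lay above all other libraries, and replicate 3 of heat-killed MJ2 lay within the range of RANKL alone. The log2 fold change under surface proteins was 1.72 ± 0.31 (SE, n = 3 per group, limma adjusted p = 0.0104), it ranged from 1.47 to 2.02 with single libraries removed, and it was 1.67 without replicate 2 of RANKL alone (adjusted p = 0.0321). Under heat-killed MJ2 it was 0.80 ± 0.38 (adjusted p = 0.278). Between both treatments it was 0.92 ± 0.31 (adjusted p = 0.0898), and without replicate 2 of heat-killed MJ2 it was 1.22 and passed (adjusted p = 0.0308, with 0.0308 to 0.218 over the alternatives).

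The other hexokinases did not share this pattern. Hk1 lay between 740 and 913 adjusted reads under RANKL alone, between 575 and 715 under heat-killed MJ2 and between 495 and 528 under surface proteins. These ranges did not overlap. Hk2, the inducible form and a HIF target, had a log2 fold change of −0.10 under surface proteins (95% interval −0.75 to 0.56) and of 0.11 under heat-killed MJ2 (−0.51 to 0.73), and without replicate 2 of RANKL alone these were 0.17 and 0.38.

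Added over the 3 hexokinases, the libraries held 2092, 3255 and 2548 adjusted reads under RANKL alone, 2684, 3250 and 2426 under heat-killed MJ2 and 2991, 3030 and 2697 under surface proteins. Replicate 2 of RANKL alone lay above all 3 surface protein libraries, and the other 2 RANKL-alone libraries lay below all 3. The share of Hk3 among these reads was 12.9% ± 5.3, 20.4% ± 5.0 and 36.5% ± 7.0 (SD, n = 3). The share of Hk1 was 31.9% ± 3.7, 24.0% ± 4.0 and 17.5% ± 1.0, and that of Hk2 was 55.2% ± 7.2, 55.6% ± 3.5 and 46.1% ± 6.7. The lowest Hk3 share under surface proteins was 28.5% and the highest in any other library 25.7%.

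**Figure D4:**
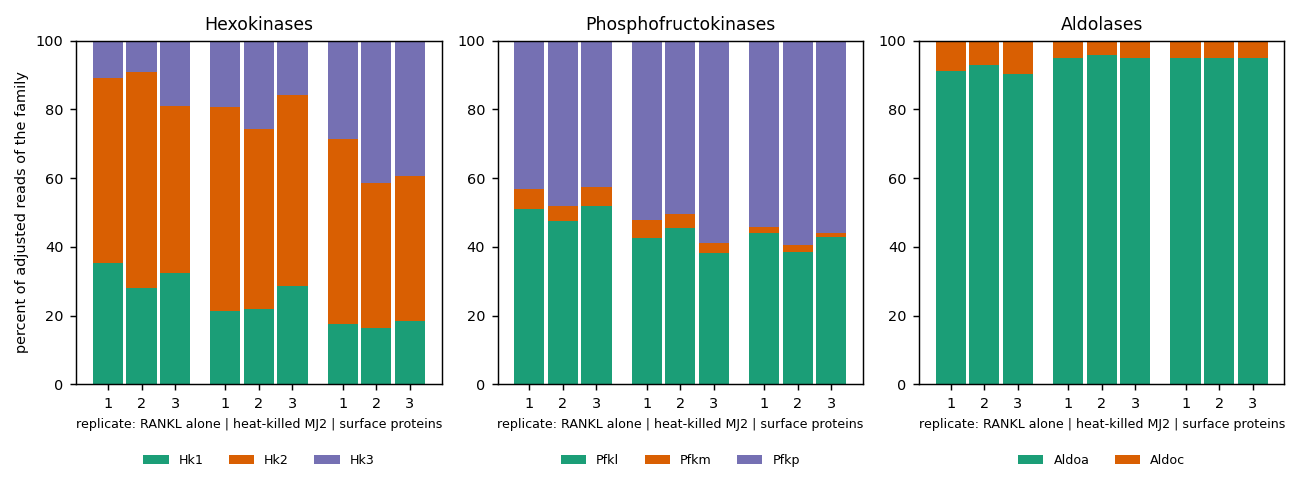
Share of each isozyme (percent of the adjusted reads of its family, vertical axis) in the 9 libraries for hexokinases, phosphofructokinases and aldolases, with 3 bars per group in the order RANKL alone, heat-killed MJ2 and surface proteins. The Hk3 share is 28.5% or more in each surface protein library, and the Pfkm share is 1.97% or less there.

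Phosphofructokinase commits sugar to glycolysis. Pfkm (chromosome 15, 98092589 to 98132447) had 108, 114 and 116 adjusted reads under RANKL alone, 98.2, 71.6 and 54.9 under heat-killed MJ2 and 35.2, 37.4 and 29.8 under surface proteins. The 3 groups did not overlap, and those of RANKL alone lay close together. Under surface proteins the log2 fold change was −1.70 ± 0.15 (SE, n = 3 per group, limma adjusted p = 0.00102), between −1.77 and −1.61 with a library left out, and −1.69 without replicate 2 of RANKL alone (adjusted p = 0.00436). Under heat-killed MJ2 it was −0.62 ± 0.22 (adjusted p = 0.172). Between both treatments it was −1.08 ± 0.24 (adjusted p = 0.0297), and this call was lost when any library other than replicate 3 of heat-killed MJ2 was left out and with a filter at a mean of 1 read, with adjusted p of 0.0108 to 0.082 over the alternatives.

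Pfkm was the minor form throughout. It made up 5.13% ± 0.82 of the reads of the 3 phosphofructokinases under RANKL alone, 4.00% ± 1.03 under heat-killed MJ2 and 1.63% ± 0.30 under surface proteins (SD, n = 3). The platelet form Pfkp held 44.7% ± 3.1, 53.9% ± 4.5 and 56.6% ± 2.7, and the liver form Pfkl the rest. Neither passed the test against RANKL alone, with log2 fold changes of 0.27 and −0.34 under surface proteins and of 0.02 and −0.50 under heat-killed MJ2. Without replicate 2 of RANKL alone Pfkp had 0.48 and 0.23, and Pfkl −0.22 and −0.39.

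Pfkfb3 and Pfkfb4 set the level of fructose 2,6-bisphosphate, which activates phosphofructokinase. Pfkfb3 had 126, 323 and 156 adjusted reads under RANKL alone, 202, 202 and 223 under heat-killed MJ2 and 364, 307 and 312 under surface proteins. Replicate 2 of RANKL alone was within the surface protein range and its fellow replicates were below every treated library. With all libraries the log2 fold change under surface proteins was 0.82 ± 0.35 (adjusted p = 0.133, limma), and without that library it was 1.22 and passed (adjusted p = 0.0119, with 0.0119 to 0.3 over the alternatives). Against heat-killed MJ2 it was 0.64 ± 0.14 (adjusted p = 0.0282), under the fold of 2. Pfkfb4 ranged from 55.0 to 119 adjusted reads and passed no test.

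Aldolases split the sugar. Aldoc (chromosome 11, 78323073 to 78327781) had 1099, 970 and 1296 adjusted reads under RANKL alone, 541, 466 and 567 under heat-killed MJ2 and 658, 631 and 688 under surface proteins. The 3 groups did not overlap, with heat-killed MJ2 at the bottom. Heat-killed MJ2 gave a log2 fold change of −1.09 ± 0.17 (SE, n = 3 per group, limma adjusted p = 0.0208). It was −1.19 without replicate 2 of RANKL alone (adjusted p = 0.0343), and the call was lost when any of the other 5 libraries was left out, with adjusted p of 0.0546 to 0.0836 and the log2 fold change at −1.15 to −0.98. Aldoc made up 8.46% ± 1.36 of aldolase reads under RANKL alone, 4.75% ± 0.55 under heat-killed MJ2 and 4.99% ± 0.08 under surface proteins (SD, n = 3), and Aldoa, the ubiquitous aldolase, made up the rest with 10282 to 12898 adjusted reads.

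In the later steps of the pathway, where ATP is regained, enolase 2 was the gene that passed a test. Eno2 (chromosome 6, 124760053 to 124769673) had 363, 837 and 363 adjusted reads under RANKL alone, 184, 230 and 120 under heat-killed MJ2 and 449, 467 and 426 under surface proteins. All heat-killed MJ2 libraries lay below all others, and replicate 2 of RANKL alone lay above all others. Surface proteins against heat-killed MJ2 gave a log2 fold change of 1.37 ± 0.25 (SE, n = 3 per group, limma adjusted p = 0.0197). This call was lost without replicate 2 or 3 of surface proteins or without replicate 1 of heat-killed MJ2, with adjusted p of 0.0101 to 0.0651 over the alternatives. Heat-killed MJ2 against RANKL alone gave −1.47 ± 0.40 (adjusted p = 0.0931), −1.07 without replicate 2 of RANKL alone (adjusted p = 0.143) and a call in the fit of all 9 libraries (adjusted p = 0.0415, with 0.0415 to 0.232 over the alternatives).

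Gapdh, which oxidises glyceraldehyde phosphate and served as the reference gene of the study's PCR, had 1120, 1221 and 926 adjusted reads under RANKL alone, 1024, 1081 and 1034 under heat-killed MJ2 and 1311, 921 and 1064 under surface proteins. The groups overlapped. The log2 fold change was 0.01 under surface proteins (95% interval −0.46 to 0.47, limma), with its sign turning under other scalings, and −0.05 under heat-killed MJ2 (−0.41 to 0.31), or 0.09 and 0.04 without replicate 2 of RANKL alone. In the last 400 bases of its transcript, 79.1% of the windows of 75 bases, the read length, also occur in 66 other annotated genes, so its count depends on how shared reads were assigned.

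The row of Eno1, the main enolase of most cells, held 0 to 4.88 adjusted reads. At the same time 2 rows named Eno1b held 1760 to 2376 adjusted reads each, and Eno1b was looked up after this was seen. Its transcript is identical to that of Eno1 at 99.5% of 1652 aligned bases (GENCODE M21), while of the 75-base windows in the last 400 bases, where 3′ reads are taken, 7.06% of those of Eno1 and 0% of those of Eno1b occur in another gene. Why the Eno1 row is near 0 was not tested, and its value is taken as uncertain. The 2 rows of Eno1b had a log2 fold change of −0.16 each under surface proteins (limma adjusted p of 0.447 and 0.463) and of −0.04 and −0.09 under heat-killed MJ2. Without replicate 2 of RANKL alone these were −0.09 and −0.08, and 0.03 and −0.01.

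The remaining enzymes moved by less. Gpi1 (2002 to 2686 adjusted reads), Tpi1 (1414 to 2242), Pgk1 (1637 to 2152) and Pkm (9442 to 13911) had log2 fold changes between −0.38 and 0.17 under surface proteins and between −0.30 and 0.07 under heat-killed MJ2, and none passed the test. Without replicate 2 of RANKL alone Pgk1 had 0.29 and 0.19. Pgam1, which passed as lower under surface proteins without the limit on the fold, lay between 3370 and 3557 adjusted reads under RANKL alone, between 3052 and 3142 under heat-killed MJ2 and between 2352 and 2633 under surface proteins. Its 3 groups did not overlap. Ldha had 4646 to 5740 under RANKL alone, 4067 to 6000 under heat-killed MJ2 and 3123 to 3696 under surface proteins, so only the surface protein libraries stood clear of the others.

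Lactate leaves the cell through Slc16a1 (MCT1) and Slc16a3 (MCT4). Slc16a1 lay between 648 and 685 adjusted reads under RANKL alone, between 784 and 970 under heat-killed MJ2 and between 507 and 629 under surface proteins. The 3 groups did not overlap. The treatments lay on opposite sides of RANKL alone, with log2 fold changes of 0.42 (adjusted p = 0.142, limma) and −0.27 (adjusted p = 0.208), and between them the log2 fold change was −0.69 ± 0.16 (adjusted p = 0.0332), under the fold of 2. Slc16a3, the HIF-responsive transporter, ranged from 858 to 1626 adjusted reads with overlapping groups.

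Hif1a, the oxygen-regulated subunit, did not pass a test in any comparison. It had 508, 436 and 307 adjusted reads under RANKL alone, 395, 405 and 428 under heat-killed MJ2 and 293, 456 and 404 under surface proteins. The groups overlapped. Its log2 fold change was −0.11 under surface proteins (95% interval −0.74 to 0.51, limma) and 0.00 under heat-killed MJ2 (−0.50 to 0.51), or −0.06 and 0.05 without replicate 2 of RANKL alone. The mRNA does not report the amount of the protein, which is set mainly by its degradation. Egln1, the oxygen sensor, had 149 to 315 adjusted reads and log2 fold changes of −0.44 and −0.35, neither passing, and of −0.19 and −0.10 without replicate 2 of RANKL alone. Egln3, an inducible sensor, held 0 to 14.9 adjusted reads and was below the filter.

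Ero1l (chromosome 14, 45283087 to 45318572) had the largest fold change of the 32 genes in the surface protein comparison. It had 289, 1069 and 384 adjusted reads under RANKL alone, 939, 1660 and 756 under heat-killed MJ2 and 3567, 3931 and 3450 under surface proteins. All surface protein libraries lay above all others and close together, and replicate 2 of RANKL alone lay within the range of heat-killed MJ2. The log2 fold change under surface proteins was 2.89 ± 0.47 (SE, n = 3 per group, limma adjusted p = 0.00766), between 2.51 and 3.45 with a library left out, the upper value being that without replicate 2 of RANKL alone (adjusted p = 0.000751). Under heat-killed MJ2 it was 1.10 ± 0.54 (adjusted p = 0.293), and 1.66 without that library (adjusted p = 0.0904). Between both treatments it was 1.78 ± 0.30 (adjusted p = 0.0161), a call lost without replicate 2 of surface proteins or replicate 1 of heat-killed MJ2, with adjusted p of 0.00741 to 0.0622 over the alternatives.

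**Figure D5:**
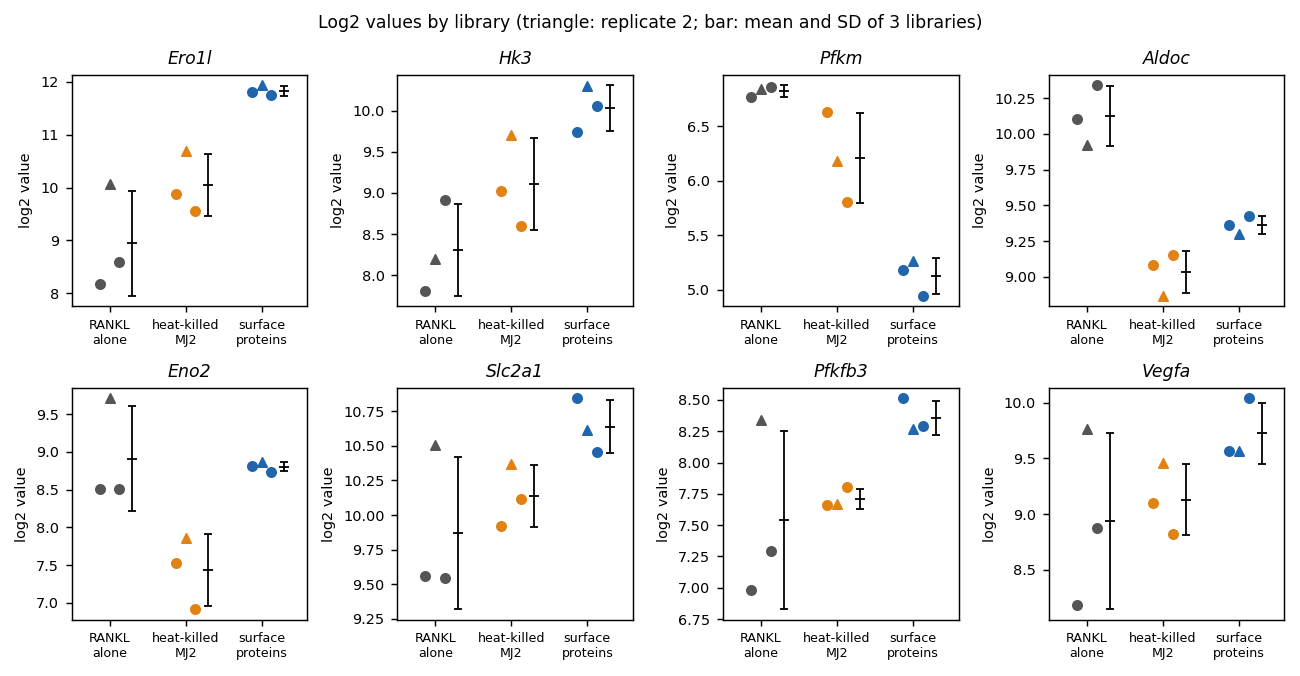
Deposited log2 values (vertical axes, scaled to each gene and not starting at 0) of the 5 genes called in at least 1 comparison and of Slc2a1, Pfkfb3 and Vegfa, with 1 point per library, a triangle for replicate 2 and bars for the mean and SD of 3 libraries. The surface protein points lie above all others for Ero1l and Hk3 and below all others for Pfkm, and the triangle of RANKL alone lies among the surface protein points for Slc2a1, Pfkfb3 and Vegfa.

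Vegfa, the growth factor of blood vessels, had 290, 868 and 468 adjusted reads under RANKL alone, 547, 702 and 452 under heat-killed MJ2 and 756, 757 and 1050 under surface proteins. Replicate 2 of RANKL alone lay within the surface protein range. The log2 fold change under surface proteins was 0.78 ± 0.40 (adjusted p = 0.192, limma), and 1.20 without that library, when it passed (adjusted p = 0.0374, with 0.0374 to 0.416 over the alternatives). Under heat-killed MJ2 it was 0.19 (adjusted p = 0.826), and 0.60 without that library. Adm, the vasodilator peptide adrenomedullin, spread from 47.7 to 448 adjusted reads within RANKL alone, 38.2 to 120 within heat-killed MJ2 and 27.6 to 72.4 within surface proteins. Its log2 fold change under surface proteins was −1.86 ± 0.82 (adjusted p = 0.137), and −2.73 without replicate 1 of RANKL alone, when it passed (adjusted p = 0.0231, with 0.0231 to 0.289 over the alternatives), but −1.12 without replicate 2 (adjusted p = 0.287).

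Bnip3 and Bnip3l mark mitochondria for removal. Bnip3 had 876, 1767 and 905 adjusted reads under RANKL alone, 572, 533 and 487 under heat-killed MJ2 and 960, 755 and 854 under surface proteins. All heat-killed MJ2 libraries lay below all others. Its log2 fold change under heat-killed MJ2 was −1.08 ± 0.29 (adjusted p = 0.0914, limma), −0.75 without replicate 2 of RANKL alone (adjusted p = 0.0724), and a call in the fit of all 9 libraries (adjusted p = 0.044, with 0.044 to 0.229 over the alternatives). Surface proteins against heat-killed MJ2 gave 0.69 ± 0.15 (adjusted p = 0.0302), under the fold of 2. Bnip3l had 927 to 1139, 565 to 657 and 807 to 848 adjusted reads, without overlap between the groups, and a log2 fold change of −0.70 ± 0.15 under heat-killed MJ2 (adjusted p = 0.048, with 0.016 to 0.16 over the alternatives and 0.113 without replicate 2 of RANKL alone), under the fold of 2. Bnip3 and Bnip3l are given in this detail after their values were seen.

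The kinases Pdk1 and Pdk3 keep pyruvate out of the mitochondria by switching off pyruvate dehydrogenase. Their log2 fold changes under surface proteins were −0.65 (adjusted p = 0.123, limma) and −0.59 (adjusted p = 0.0589), and under heat-killed MJ2 −0.46 and −0.11, none passing, with the last at −0.25 without replicate 2 of RANKL alone. P4ha1, a collagen prolyl hydroxylase, ranged from 418 to 666 adjusted reads with overlapping groups against RANKL alone. Ankrd37 was the weakest of the tested HIF targets at 12.7 to 82.7 adjusted reads, and its log2 fold changes had 95% intervals of −2.25 to 0.59 under surface proteins and −2.43 to 0.43 under heat-killed MJ2, and its value under surface proteins went from −0.83 to −0.41 without replicate 2 of RANKL alone, and under heat-killed MJ2 to −0.58.

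Beyond the 34 genes, lists of neighbouring pathways were read in the same fits. Of 15 tested genes of other glucose transport, side branches and glycogen, 3 rose under surface proteins and 0 fell, where 10.2% of all genes tested rose and 7.32% fell. These were Slc2a6, a lysosomal glucose transporter family member, with 11.8 to 112 adjusted reads under RANKL alone and 437 to 521 under surface proteins (log2 fold change 3.46), Pck2, the mitochondrial PEP carboxykinase (3.04), and Ugp2, which makes UDP-glucose (1.36). Under heat-killed MJ2, Pck2 rose (2.34) and 0 genes of the list fell, where 3.37% and 0.897% of all genes did. Of 11 tested genes of pyruvate entry into mitochondria, none was called under surface proteins. Pdk2 alone was lower under heat-killed MJ2, at 2.86 to 5.87 against 21.5 to 34.9 adjusted reads. In that comparison Pdk2 passed the filter only through the RANKL-alone libraries, so it could only be called lower. Without replicate 2 of RANKL alone it was not tested. Under surface proteins Pdk2 held 3.89 to 18.6 adjusted reads, also below every RANKL-alone library. Between the treatments, 0 genes of either list were called, where 5.08% of all genes were higher and 4.97% lower. Of the 7 pentose phosphate genes and the 5 tested HIF partners and regulators outside the 34 genes (Arnt, Egln2, Vhl, Hif1an and Cited2), 0 were called in any of the 3 comparisons by limma, and an unadjusted p under 0.05 with the same fold added 0 genes to any of these counts of 0. Hif3a and Ldhb were listed at 0 in all libraries.

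Of 27 tested other hypoxia-inducible genes, 7 rose under surface proteins and 0 fell, against 10.2% and 7.32% of all genes. At an unadjusted p and the same fold these counts were 9 and 1, against 11.3% and 8.42%. The largest changes were those of Nos2, Edn1 and Mt2. Nos2, the inducible nitric oxide synthase, had 0.97 to 21.7 adjusted reads under RANKL alone and 308 to 494 under surface proteins. Edn1, an endothelin, held at most 5.92 under RANKL alone and 23.0 to 47.2 under surface proteins. Mt2, a metallothionein, had a log2 fold change of 3.53. Edn1 passed the filter of 10 reads only through the treated libraries, so it could only be called higher. Nos2 also needed the treated libraries to pass this filter. Under heat-killed MJ2, 3 of 26 rose, among them Nos2 (5.31) and Mt2 (2.72), and 0 fell, where 3.37% and 0.897% of all genes did, with 5 and 0 at an unadjusted p (limma), where 5.36% and 2.03% of all genes passed. Between the treatments, 2 of 27 were higher under surface proteins and 2 lower, where 5.08% and 4.97% of all genes were. The higher ones were Ndrg1, a stress-induced gene (2.57), and Errfi1, an inhibitor of the EGF receptor (1.03). The transferrin receptor Tfrc (−1.04) was among the lower ones. Nos2 is also known as a gene induced by bacterial products and Mt2 as a gene induced by metals. The median log2 fold change of this list was 0.24 under surface proteins and 0.18 under heat-killed MJ2, or 0.31 and 0.30 without replicate 2 of RANKL alone.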

How the data were processed

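Total RNA of RAW264.7 cells was sequenced from the 3′ end of mRNA as single-end reads. Per the labels, the submitters' processing notes name Bowtie2, bedtools and mm10, and their versions are not given in the sources used here. The authors deposited log2 values (normalized reads plus 1) for 23282 gene rows, which the methods describe as quantile-normalized. Totals of adjusted reads still differed between libraries, from 5930926 to 6503682. A further quantile normalization moved the median log2 fold change under surface proteins from −0.01 to −0.07. Which scaling the deposited values carry is therefore uncertain. From these, limma 3.58.1 in R 4.3.3 (lmFit, eBayes) compared 3 pairs of groups, each on its own 6 libraries. A gene was tested if 3 or more of the libraries held 10 or more adjusted reads of it, with Benjamini-Hochberg adjustment over all of them, and called if the adjusted p was below 0.05 and the difference at least 2-fold. Python 3.11.15 prepared the files. The fit was checked on simulated data, and no library pair was found to be a duplicate (chi-square per degree of freedom of 6.90 to 18.5 within groups). The 34 genes and the lists were chosen with earlier results of these data known. All 34 are accounted for. Values in every library are given for those called, for Hif1a and for Gapdh, and per background list at most the 3 called genes with the largest change are named, except for some items that are not reported here. Alternatives were scalings, filters, pseudocounts of 0.1 and 2, a replicate block, robust eBayes, a fit of all 9 libraries, other thresholds and leaving out each library.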

Additional observations from a re-analysis of the deposited data

How the results depend on the processing

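Of 1632 refits of single-gene fold changes over the alternatives, 1599 kept the side of the threshold, 16 lost a call, 17 gained one and 0 turned a called direction. The calls of Ero1l, Hk3 and Pfkm under surface proteins against RANKL alone held under every alternative, while those of Aldoc under heat-killed MJ2, and of Ero1l, Eno2 and Pfkm between the treatments did not survive the loss of some single libraries named above. Without a limit on the fold change, the glycolysis genes lower under surface proteins went from 1 to 5, the HIF-pathway genes lower under heat-killed MJ2 from 0 to 1, and between the treatments glycolysis genes higher and lower went from 1 to 2 each and HIF-pathway genes higher from 1 to 2. With all 9 libraries in a single fit, or with unadjusted p, heat-killed MJ2 gave 2 lower glycolysis genes in place of 1 and 1 lower HIF-pathway gene in place of 0. A filter at a mean of 1 read left 0 glycolysis genes lower between the treatments in place of 1. With each library left out in turn, counts under surface proteins ranged from 1 to 3 for glycolysis genes higher, from 1 to 2 for HIF-pathway genes higher and from 0 to 1 for HIF-pathway genes lower. The upper values, 3 and 2, came without replicate 2 of RANKL alone, and the 1 lower without replicate 1. Under heat-killed MJ2, glycolysis genes lower ranged from 0 to 1. Between the treatments the ranges were 0 to 2 for glycolysis genes higher, 0 to 1 for those lower and 0 to 1 for HIF-pathway genes higher.

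Replicate numbers are shared between groups in the labels. Deviations of same-numbered libraries correlated at 0.02 to 0.11 over 9 pairs, and those of different numbers at −0.08 to 0.03, so not every pair passed 0.1 and the number was not taken as a pairing, although each library correlated best with its own number. With the replicate block, counts of called genes went from 1902 to 1813 under surface proteins, from 461 to 289 under heat-killed MJ2 and from 1098 to 980 between the treatments, and no call among the 34 genes changed. Of the 15 passes without a limit on the fold change, 6 were lost with the block, which were Pgam1 and Ldha under surface proteins (adjusted p of 0.0848 and 0.107), Bnip3l under heat-killed MJ2 (0.0964), and Pfkfb3, Slc16a1 and Bnip3 between the treatments (0.0672, 0.0572 and 0.0561). Of the marker calls under heat-killed MJ2, the block left 1 of 3 osteoclast markers lower, without Acp5 (adjusted p = 0.0692) and Atp6v0d2 (adjusted p = 0.0935), and 1 of 3 macrophage markers higher, without Lyz2 (adjusted p = 0.0644) and Fcgr1 (adjusted p = 0.104), while all marker calls under surface proteins against RANKL alone held. Over all genes, leaving out a library gave 81 to 347 calls under heat-killed MJ2 and 362 to 1176 between the treatments. With 3 libraries a group, intervals of the HIF-pathway genes are wide, and a p that misses the threshold does not show equal expression.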
